A study of Mus musculus with 23 samples.

Results

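miR-142a is a microRNA of blood cells whose hairpin gives a stable product from each side of its stem, mmu-miR-142a-5p and mmu-miR-142a-3p. The arms were taken by name from the count tables and the RPM table of small RNA libraries, and they are 2 of 1256 microRNA entries in all. The libraries, 23 in 6 groups, come from mouse type 2 lymphocytes: group 2 innate lymphoid cells (ILC2), which make type 2 cytokines without an antigen receptor, and CD4 T cells, which become T helper 2 (Th2) cells. IL-33 ILC2 (n = 4) were wild-type lung ILC2 sorted after 500 ng of IL-33 by oropharyngeal aspiration over 3 days. Cultured ILC2 (n = 4) were wild-type cells kept for 10 days with IL-33, TSLP and IL-7 at 10 ng/ml. Lung ILC2 (n = 4) were wild-type and untreated. All ILC2 were sorted as CD45+Thy1+lin-CD4-CD25+ST2+. OVA-lung Th2 (n = 3) were lung cells of the genotype Il4tm1LKy, sorted as CD45+CD11c-CD11b-CD4+CD3+4get+, so that the Il4 reporter allele defined them. Those mice had received 50 ug of ovalbumin (OVA) with alum intraperitoneally over 3 weeks and 50 ug of OVA by the airway over 3 days. Cultured Th2 (n = 4) were wild-type CD4+ cells of spleen and lymph nodes, selected on beads and grown for 5 days with antibodies to CD3 and CD28, 500 U/ml of IL-4 and 10 ug/ml of antibody to interferon gamma. CD4 T cells (n = 4) were wild-type spleen and lymph node cells sorted as CD4+CD62LhiCD44loCD25-CD69-. The labels do not say whether libraries of one group are of different mice. P-values therefore refer to the spread between libraries alone, and that spread may be technical.

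The hairpin of a microRNA is cut by Drosha and Dicer into a duplex, and an Argonaute protein keeps a strand of it. The kept strand pairs with target messages mainly through its seed, bases 2 to 8, so the arms of a hairpin have different targets. miR-142 is known as one of the most abundant microRNAs of blood cells of every lineage, and mice without the gene are known to have defects of lymphocytes and platelets.

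The mature arms are shown first, 5′ to 3′, since every result below is a count of one or the other; capitals mark the seed.
miR-142a-5p: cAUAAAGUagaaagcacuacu
miR-142a-3p: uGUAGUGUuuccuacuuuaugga
In the hairpin of Mir142 that holds them, capitals mark the arms.
Mir142: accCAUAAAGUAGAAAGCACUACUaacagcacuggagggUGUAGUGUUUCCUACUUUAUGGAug

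These sequences and positions are RefSeq's on GRCm38.p6. The hairpin lies on the plus strand at chr11:87756864-87756927, the 5p arm at chr11:87756867-87756887 and the 3p arm at chr11:87756903-87756925. In GENCODE M21 the hairpin lies in the intron between exon 1 and exon 2 of the long noncoding RNA Mir142hg (chr11:87755577-87757270, plus strand). A second hairpin, Mir142b, lies on the minus strand at chr11:87756841-87756955 and covers the whole of Mir142. No entry named miR-142b was among those analysed here, and use of strand in the counting is not given in the sources used here. By name, 1009 of the 1256 entries matched a RefSeq mature sequence, and among them 0 others share the 5p seed and 0 others the 3p seed. The entry for the uncut precursor had 0.5 expected counts in all, in 1 library.

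The shallowest library had 84918 counts in total, the deepest 28371920 and the median library 832220. Levels are given in RPM, the authors' own scaling of microRNA reads to one fixed library total. Relative to the level, the counting interval of levels above 0 was widest for the 3p arm in IL-33 ILC2 library 2. There 230 counts gave 2565 RPM (95% Clopper-Pearson interval 2244 to 2918). Intervals cover counting error only. Each replicate number belongs to 1 of 4 count tables, so libraries with the same number share a table. OVA-lung Th2 have libraries 1 to 3. Levels in these bulk samples cannot tell fewer cells of a type from less RNA per cell.

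miR-142a-5p was abundant in every group. Its level was 5532, 43633, 29806 and 5038 RPM in IL-33 ILC2 libraries 1 to 4. In cultured ILC2 it was 11702, 20913, 12410 and 1074 RPM. In lung ILC2 it was 9812, 34316, 20272 and 5438 RPM. The ILC2 groups overlapped one another throughout, and each spread over several fold between tables. In OVA-lung Th2 the 5p level was 35910, 53258 and 12954 RPM. In cultured Th2 it was 16269, 24272, 13397 and 1297 RPM. In CD4 T cells it was 41867, 88801, 56506 and 19263 RPM. CD4 T cells held the highest 5p level within each of the 4 count tables, although the ranges of the groups overlapped across tables.

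The order of the 5p means ran from CD4 T cells (51609 ± 29146 RPM, SD, n = 4) through OVA-lung Th2 (34041 ± 20217, n = 3), IL-33 ILC2 (21002 ± 19007, n = 4), lung ILC2 (17459 ± 12846, n = 4) and cultured Th2 (13809 ± 9526, n = 4) to cultured ILC2 (11525 ± 8128, n = 4). Every neighbouring pair in that order overlapped and differed by less than the larger SD of the pair. The count table moved with the level in all groups. Library 2 was the highest of its group in 6 of 6 groups, and library 4 the lowest in 5 of 5. The libraries numbered 2 ran from 20913 to 88801 RPM and those numbered 4 from 1074 to 19263 RPM. The rank of miR-142a-5p among all entries of a library ran from 4 to 26 in IL-33 ILC2, 12 to 38 in cultured ILC2, 8 to 28 in lung ILC2, 2 to 12 in OVA-lung Th2, 10 to 22 in cultured Th2 and 2 to 12 in CD4 T cells.

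miR-142a-3p was listed at 0 in 4 libraries and was abundant in the other 19. Its level was 690, 2565, 4177 and 367 RPM in IL-33 ILC2 libraries 1 to 4. In cultured ILC2 it was 0, 15824, 9942 and 479 RPM. In lung ILC2 it was 16382, 18098, 8018 and 817 RPM. Within each of the 4 tables the IL-33 ILC2 library was lower than the lung ILC2 library. In OVA-lung Th2 the 3p level was 3381, 11012 and 4934 RPM. In cultured Th2 it was 4751, 0, 4108 and 228 RPM. In CD4 T cells it was 83253, 21474, 0 and 0 RPM. The CD4 T cell group held both the highest 3p level of the series and 2 of the 4 zeros. Over libraries with counts the 3p means ran from CD4 T cells (21474 and 83253 RPM, n = 2) through lung ILC2 (10829 ± 7996 RPM, SD, n = 4), cultured ILC2 (8748 ± 7742, n = 3), OVA-lung Th2 (6442 ± 4033, n = 3) and cultured Th2 (3029 ± 2447, n = 3) to IL-33 ILC2 (1950 ± 1773, n = 4). Neighbours in that order differed by less than the larger SD of the pair, which for CD4 T cells (43684 RPM) is of only 2 libraries. Both of those lay above every lung ILC2 library, whereas the other neighbouring pairs overlapped.

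**Figure D1:**
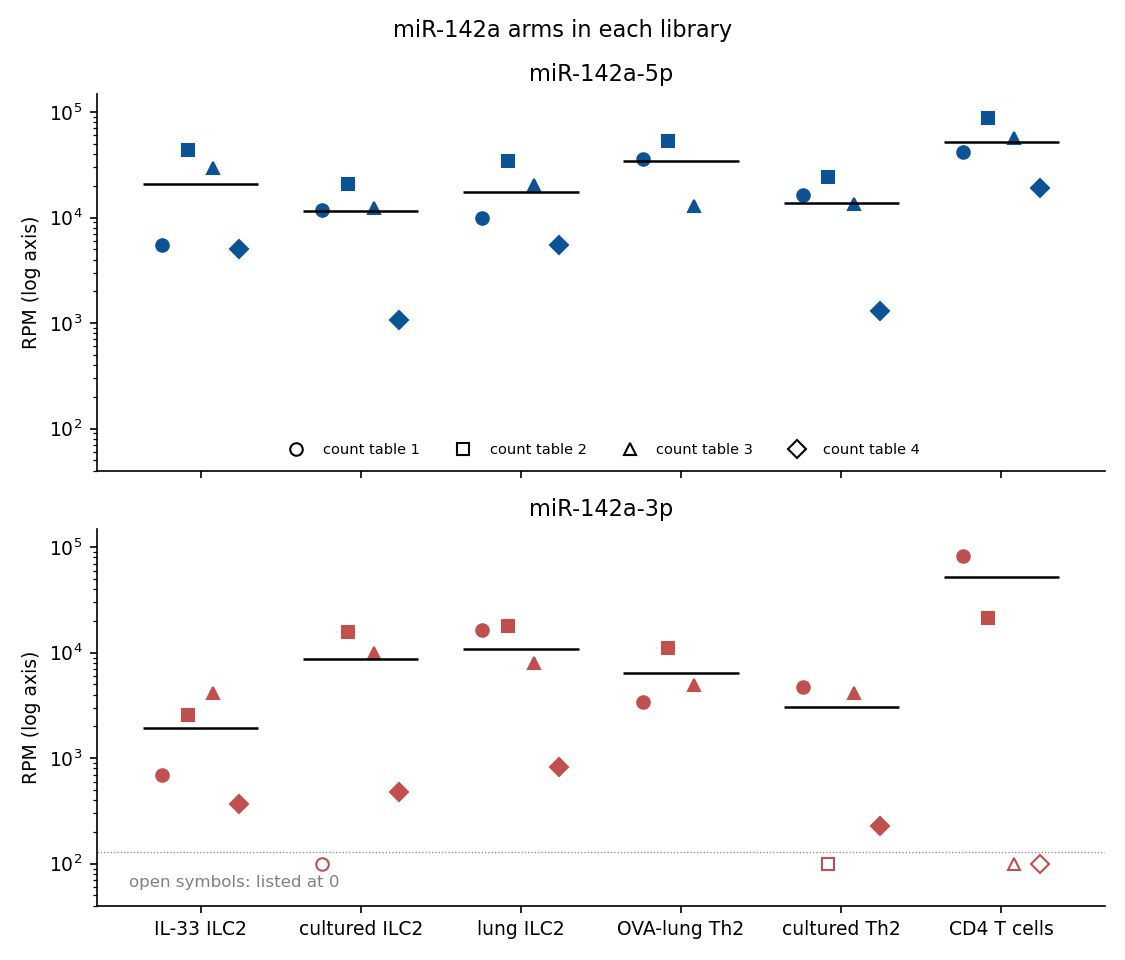
Levels of miR-142a-5p (upper panel) and miR-142a-3p (lower panel) in RPM on a log axis, with 1 symbol per library, its shape giving the count table, and the bar at the mean of the group's libraries above 0. The CD4 T cell library is the highest for 5p in each of the 4 tables, and 4 libraries have the 3p arm listed at 0 (open symbols).

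The 4 zeros fell 1 to each count table and stood beside high counts of the partner arm. Cultured ILC2 library 1 had 10805 counts of 5p and 0 of 3p, and cultured Th2 library 2 had 52323 and 0. CD4 T cells library 3 had 25102 and 0, and library 4 had 30652 and 0. At the lowest 3p level of the other libraries of their own table, 637, 5529, 1825 and 363 counts would have been read in these 4 libraries. With a floor of 3 counts per library, a zero allows at most 3.25, 1.39, 6.75 and 1.89 RPM. The listed 5p counts were 3602, 17441, 8367 and 10217 times that floor. Both are bounds on the 3p arm only if all of its reads were counted, which was not tested. In the other 19 libraries the highest ratio was 17.0.

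The zeros were shared with few other entries. Of the 77 entries with counts in all 19 other libraries, 3 were at 0 in all 4 of these: miR-142a-3p, miR-30b-5p and miR-30c-5p. miR-30c-5p had a median of 2349 RPM (43 to 11022) in the other 19 libraries and miR-30b-5p had a median of 262 RPM (11.8 to 2546). These are members of the miR-30 family, from other loci and with another seed. Among the entries with a matched RefSeq sequence, miR-142a-3p and miR-30c-5p share the letters UCCUAC at different positions. For miR-30b-5p no sequence was matched, so whether it holds these letters was not examined. That run was picked out after the values were seen, so its counts carry no test. The 4 matched entries that hold it are shown with it in capitals.
miR-142a-3p: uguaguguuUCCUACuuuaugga
miR-30c-5p: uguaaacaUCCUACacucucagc
miR-155-3p: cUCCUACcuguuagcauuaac
miR-493-3p: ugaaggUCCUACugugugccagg

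UCCUAC was searched in the mature sequence as read 5′ to 3′ and occurs in 4 of the 1009 matched entries (0.396%) and in 6 of the 1679 mature sequences of the table (0.357%). It starts at base 10 of miR-142a-3p, base 9 of miR-30c-5p, base 2 of miR-155-3p and base 7 of miR-493-3p. The 4 entries together had 7 counts in the 4 libraries, of 5114576 counts there, against 459450 counts in the other 19 libraries. Of those 459450 counts, 391834 were of miR-142a-3p and 65850 of miR-30c-5p. The run was taken from these entries after their zeros were seen, so this contrast was fixed in advance. The 7 counts were all of miR-155-3p, the minor arm of an activation-induced microRNA, which had 1733 counts in 11 of the other 19 libraries. miR-493-3p had 33 counts in 2 of the other 19. Of 68 matched entries without the run that had counts in all 19, 0 were at 0 in all 4 libraries and 3 were at 0 in any of them. The first of these counts was also fixed by the choice of the run, and it leaves out miR-30b-5p, which had no matched sequence. Why the entries are listed at 0 was not tested, so miR-142a-3p is called listed at 0, not absent, in these libraries.

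**Figure D2:**
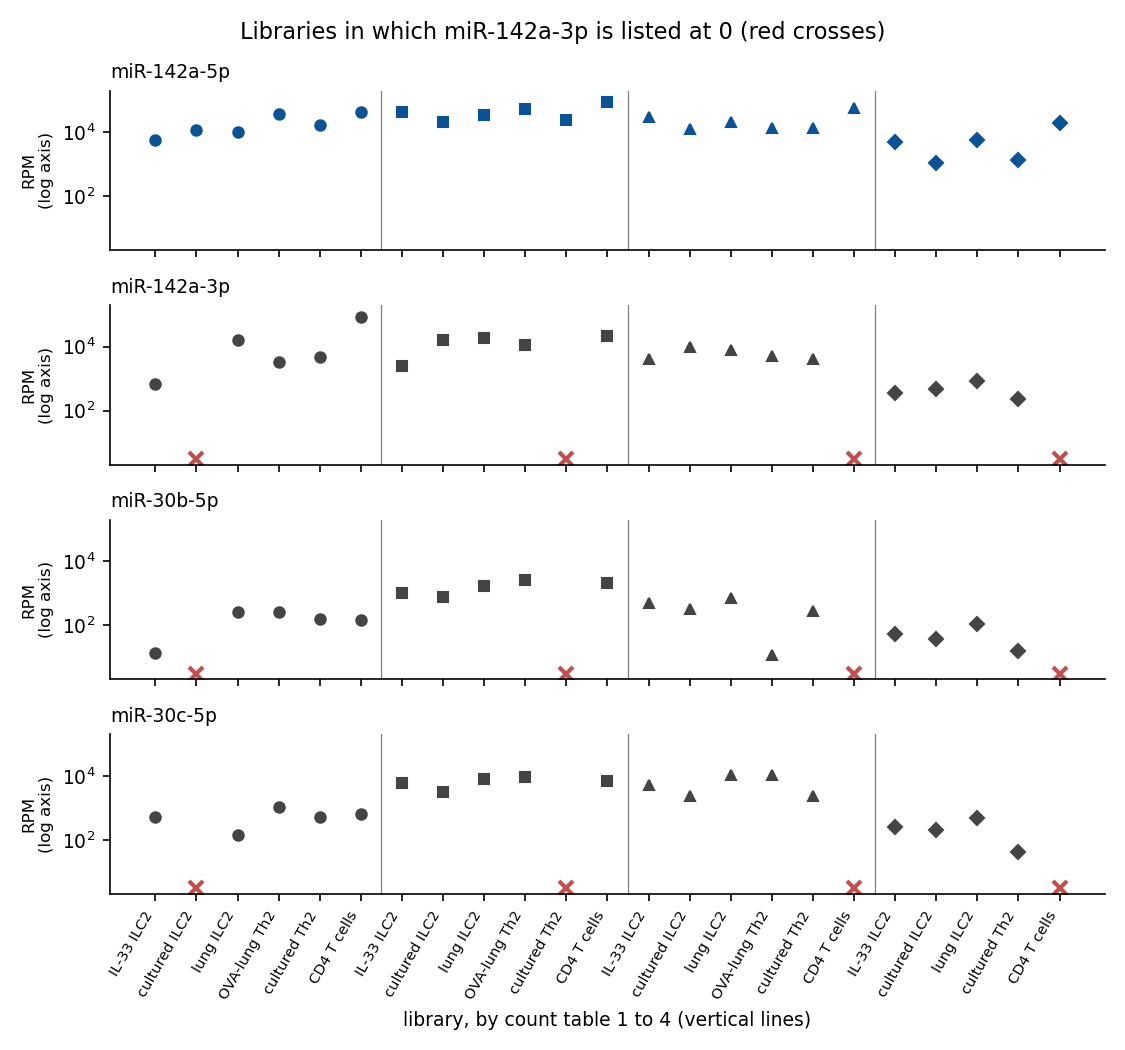
Levels in RPM on a log axis of miR-142a-5p and of the 3 entries at 0 in the same 4 libraries, with libraries ordered by count table. The red crosses mark the zeros, which fall in 1 library of each table, while miR-142a-5p is at 1074 RPM or more in all 23.

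The ratio of 5p to 3p counts needs no scaling between libraries. Over the 19 libraries with 3p counts its group mean was highest in IL-33 ILC2. With the 4 zeros in and 0.5 counts added to each arm, the mean log2 ratio was instead 8.14 in CD4 T cells, 5.67 in cultured Th2 and 4.07 in cultured ILC2, all above 3.42 in IL-33 ILC2. Its log2 values were 3.00, 4.09, 2.83 and 3.78 in IL-33 ILC2 libraries 1 to 4, against −0.74, 0.92, 1.34 and 2.73 in lung ILC2. These groups did not overlap. The IL-33 ILC2 libraries had 8.02, 17.0, 7.14 and 13.7 counts of 5p per count of 3p, whereas lung ILC2 libraries had 0.599, 1.90, 2.53 and 6.66. As a share of both arms the 5p arm was 91.1 ± 3.26% in IL-33 ILC2 and 65.4 ± 20.7% in lung ILC2 (SD, n = 4 each). In each of the 4 tables the log2 ratio was higher in the IL-33 ILC2 library, by 1.05 to 3.74. The difference of the means, with 0.5 counts added to each arm, was 2.36 (exact two-sided permutation p = 0.0286, the smallest that 4 against 4 allows). Adjusted over the 7 pairs of groups p was 0.2, so the difference did not pass. With pairing by table the exact sign-flip p was 0.125, which is the smallest 4 pairs allow. Summed markers of lung mesenchyme also separated these groups, at 0.0397 to 0.188% of counts in IL-33 ILC2 and 0.459 to 1.17% in lung ILC2 (8 of 8 entries with counts in each). In the edgeR tests described below, 0 of the 7 such entries tested passed between these groups, with or without pairing by table. Sums of endothelial, erythroid, myeloid, epithelial and liver or muscle markers overlapped between the groups. The part of such cells in the ratio was not tested.

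The other groups lay between these or could be read only in part. In cultured ILC2 the log2 ratio was 0.40, 0.32 and 1.16 in libraries 2 to 4. In OVA-lung Th2 it was 3.41, 2.27 and 1.39, and in cultured Th2 1.78, 1.71 and 2.51 in libraries 1, 3 and 4. In CD4 T cells it was −0.99 and 2.05 in libraries 1 and 2, and all 4 IL-33 ILC2 libraries lay above both. The 3p arm was the more abundant in 2 of 23 libraries, lung ILC2 library 1 and CD4 T cells library 1, both from the same count table.

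With all 23 libraries the groups took 18.2% of the variance of the log2 ratio (permutation p = 0.618, 100000 resamples) and the count tables took 1.37% (p = 0.905). Without these 4 libraries, a choice made after the data were seen, the groups took 59.0% (permutation p = 0.0267) and the count tables took 11.2% (p = 0.604). With table means subtracted the groups took 70.8% (permutation within tables, p = 0.00846). Without the 4 libraries cultured ILC2 lay below cultured Th2 with no overlap, at a mean log2 ratio of 0.63 ± 0.46 against 2.00 ± 0.44 (SD, n = 3 each). The exact permutation p was 0.1, the smallest that 3 against 3 allows, and 0.35 adjusted over the pairs. None of the 7 pairs passed with or without the 4 libraries.

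**Figure D3:**
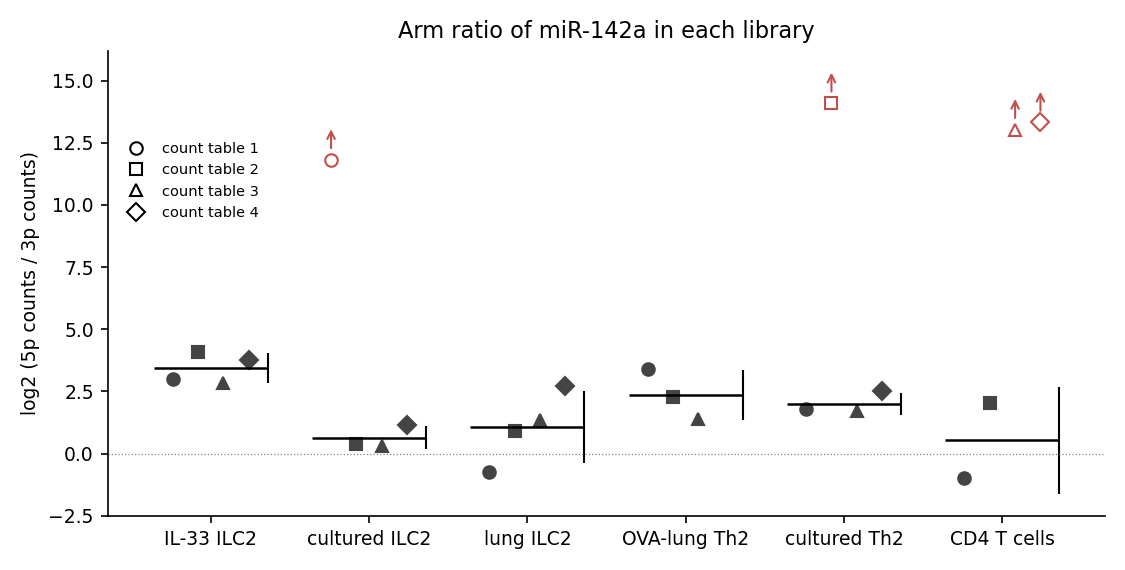
Log2 ratio of 5p to 3p counts per library, with the bar at the mean and the line at its right end at ± 1 SD over libraries with 3p counts, and symbols giving the count table. Red open symbols with arrows use a floor of 3 counts and are lower bounds only if all 3p reads were counted. IL-33 ILC2 (2.83 to 4.09) and lung ILC2 (−0.74 to 2.73) do not overlap, but the counting intervals of their nearest libraries do.

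Whether the arms vary together across libraries was asked of log2(CPM + 1). Over 23 libraries they did not pass (Pearson r = 0.15, permutation p = 0.504; Spearman rho = 0.36, p = 0.0945). Without the 2 libraries farthest from the median of 5p, r was 0.12 (permutation p = 0.619). Over the 19 libraries with 3p counts r was 0.79 (permutation p = 1e-04) and rho 0.65 (p = 0.00322), and r was 0.67 without the 2 farthest of them (p = 0.00315). With table means subtracted r over the 19 was 0.41 (permutation p = 0.0816), so that within tables the relation did not pass. These are 8 versions of 1 relation, in which scaling was also changed.

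Differences in the 5p level between groups were tested with edgeR on the counts, with 384 entries that passed a filter on low counts, and a call is a Benjamini-Hochberg adjusted p below 0.05. The first question was whether untreated innate and adaptive cells differ. Since lung ILC2 and CD4 T cells of spleen and lymph nodes were compared, cell type cannot be told apart from tissue here. Lung ILC2 had less miR-142a-5p than CD4 T cells within each of the 4 tables, by 2.09, 1.37, 1.48 and 1.82 on the log2 RPM scale. The edgeR log2 change was −2.54 ± 0.93 (SE) and was not called (adjusted p = 0.156). With the replicate number as a block the change was −2.69 ± 0.53 and was called (adjusted p = 0.000444). Without the block 6 of 384 entries were called (1.56%), and with it 48 (12.5%). The median of all 384 entries with the block was −1.09, so the 5p arm lay below the typical entry. The size follows the scaling, since the blocked change was −1.93 with DESeq2 size factors and −1.69 with library totals, called under both. Without the 4 libraries in which 3p is at 0, 2 of them CD4 T cells, the blocked change was −1.76 ± 0.75 and was not called (adjusted p = 0.212).

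Markers of other cells were also read in this comparison, and only the mesenchymal sums did not overlap between the groups. With the block edgeR called 1 of 2 endothelial entries, miR-126a-3p (8.71 ± 1.24). It also called 1 of 7 mesenchymal entries tested, miR-143-3p (7.03 ± 2.13). The other lists had 0 calls, beside 12.5% of all entries called. Without the block miR-126a-3p alone was called, beside 1.56% of all entries. All 8 mesenchymal entries had counts in lung ILC2 and 4 of 8 in CD4 T cells, and their summed share was 0.459 to 1.17% in lung ILC2 against 0.00134 to 0.0128% in CD4 T cells. The endothelial pair, the arms of miR-126a, summed to 0.0256 to 2.16% in lung ILC2 and 0 to 0.0317% in CD4 T cells. Erythroid entries summed to 0.0249 to 1.87% in lung ILC2 and 0.00185 to 0.443% in CD4 T cells. Myeloid miR-223 entries summed to 0 to 0.0969% in lung ILC2 and 0.000231 to 0.072% in CD4 T cells. Epithelial entries were at 0 to 0.139% and 0.0263 to 0.0939% in these groups, and liver or muscle entries at 0 to 0.00934% and 0.000231 to 0.0475%. The part of such cells in the 5p result was not tested, and the lists hold no microRNA that defines ILC2 or T cells.

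Over all groups, the ILC2 lineage (3 groups) was set against the T lineage (3 groups). CD4 T cells and cultured Th2 came from spleen and lymph nodes, and OVA-lung Th2 carried the Il4 reporter allele. Treatments and sorts differed too, so lineage cannot be told apart from tissue, genotype, treatment or sort. The edgeR change of miR-142a-5p was −1.35 ± 0.52 and not called (adjusted p = 0.0789). With the block it was −1.29 ± 0.30 and was called (adjusted p = 0.00161). Calls made up 9.11% of entries without the block and 23.7% with it, so that a call here is common. With the block the median of all entries was −0.50. Library totals gave −0.80, still called (adjusted p = 0.0476), and leaving out the 4 libraries with 3p at 0 gave −1.04, not called (adjusted p = 0.131).

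Some markers of other cell types were called between the lineages too, where 23.7% of all entries were called with the block and 9.11% without it. With the block, 1 of 2 endothelial entries rose in the ILC2 lineage, miR-126a-3p (3.74 ± 0.60, edgeR adjusted p = 7.39e-06). Of 7 mesenchymal entries tested 2 rose, miR-143-3p (3.53 ± 1.18) and miR-145a-3p (4.42 ± 1.35), and these 3 entries were called without the block as well. Of 4 erythroid entries tested 2 rose with the block, miR-486a-5p and miR-486b-5p, which had the same change (2.56 ± 0.89), and so did 1 of 2 liver or muscle entries, miR-1a-3p (3.72 ± 1.05). The 7 epithelial entries and the 1 myeloid entry tested had 0 calls. Mesenchymal entries summed to 0.0111 to 1.17% of counts in the 12 ILC2 libraries (median 0.151%) and 0.000232 to 0.704% in the 11 T lineage libraries (median 0.00786%). Endothelial entries summed to 0.00379 to 2.16% in ILC2 libraries (median 0.0534%) and 0 to 0.108% in T lineage libraries (median 0.00983%). The ranges overlapped, and the part of these cells in the 5p call was not tested.

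Stimulation was asked about in each lineage. In IL-33 ILC2 against lung ILC2 the 5p arm was higher in 2 tables and lower in 2. Its edgeR change was 0.92 ± 0.88 without the block and 1.08 ± 0.52 with it, neither called (adjusted p = 1 and 0.591). Calls were 0% without the block, where edgeR called 0 entries, 22 had an unadjusted p below 0.05, DESeq2 called 3 and limma 0, and 0.521% with it. In cultured ILC2 against lung ILC2 the 5p arm was lower in 3 of 4 tables by RPM, yet the TMM-scaled edgeR change was 0.45 ± 0.88 (adjusted p = 0.897), and 0.34 ± 0.51 with the block (adjusted p = 0.747). The sign turned to −0.60 with library totals and −0.36 with DESeq2 size factors, so no direction is given. Calls were 0.26% without and 4.43% with the block.

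In the T lineage the 5p arm was lower than in CD4 T cells in every table. OVA-lung Th2 differ from CD4 T cells in tissue, genotype and sort as well as in OVA treatment, and these cannot be told apart. In OVA-lung Th2 the 5p arm was lower by 0.22, 0.74 and 2.13 on the log2 RPM scale in libraries numbered 1 to 3. The edgeR change was −0.81 ± 0.96 (adjusted p = 0.687), and −1.24 ± 0.58 with the block (adjusted p = 0.159), not called in either. Calls were 0% without the block (0 by edgeR, 66 at an unadjusted p below 0.05, 28 by DESeq2, 10 by limma) and 5.73% with it. Cultured Th2 were grown from CD4+ cells selected on beads, whereas CD4 T cells were sorted by further surface markers. Selection therefore cannot be told apart from culture in that comparison. In cultured Th2 the 5p arm was lower by 1.36, 1.87, 2.08 and 3.89 in libraries numbered 1 to 4. The edgeR change was −1.41 ± 0.89 and not called (adjusted p = 0.478). With the block it was −1.52 ± 0.51 and was called (adjusted p = 0.0433), where the median of all entries was 0.36. Calls were 1.04% without the block and 13% with it. Among the markers of other cells 1 entry was called there with the block, miR-126a-3p (4.24 ± 1.05), with endothelial entries at 0.000452 to 0.0337% in cultured Th2 and 0 to 0.0317% in CD4 T cells, and its part was not tested. The call of 5p is marginal. It was lost with DESeq2 size factors (−1.24, adjusted p = 0.0576), with no filter on low counts (−1.23, adjusted p = 0.36), without the 4 libraries with 3p at 0 (−0.62, adjusted p = 0.84) and in 12 of the 23 fits that left out 1 library. Those were the fits without IL-33 ILC2 library 4, cultured ILC2 libraries 1, 2 and 4, lung ILC2 library 2, OVA-lung Th2 library 2, cultured Th2 libraries 2, 3 and 4, and CD4 T cells libraries 1, 2 and 4, with changes of −1.57 to −1.11.

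Stimulated cells of the lineages were also set against each other. The in vivo pair differs in treatment, genotype and sort as well as in lineage. The cultured pair differs in days of culture, added factors and selection of cells as well as in lineage. IL-33 ILC2 against OVA-lung Th2 gave an edgeR change of −0.81 ± 0.94 in 5p (adjusted p = 0.683), and −0.37 ± 0.57 with the block (adjusted p = 0.729). Calls were 0% without the block (0 by edgeR, 62 at an unadjusted p below 0.05, 19 by DESeq2, 1 by limma) and 3.39% with it. Cultured ILC2 lay below cultured Th2 in all 4 tables, by only 0.48, 0.21, 0.11 and 0.27 on the log2 RPM scale. The edgeR change was −0.69 ± 0.88 (adjusted p = 0.864), and −0.83 ± 0.50 with the block (adjusted p = 0.365), with calls at 0.26% without and 12.5% with the block. This difference did not pass.

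The test of whether stimulation acts differently on the lineages subtracts the T cell change from the ILC2 change. The in vivo T cell change also spans tissue, genotype and sort, so that difference is not of stimulation alone. The culture changes differ in days, added factors and selection of cells, so their difference is not of lineage alone. In vivo the difference for 5p was 1.73 ± 1.31 in edgeR (adjusted p = 0.568), and 2.32 ± 0.78 with the block (adjusted p = 0.0768), against a median of 1.24 over all entries. Calls were 0% without the block (0 by edgeR, 64 at an unadjusted p below 0.05, 11 by DESeq2, 1 by limma) and 3.65% with it. In culture it was 1.85 ± 1.25 (edgeR adjusted p = 0.843), and 1.86 ± 0.71 with the block (adjusted p = 0.228). Calls were 0% without the block (0 by edgeR, 21 at an unadjusted p below 0.05, 6 by DESeq2, 0 by limma) and 0.781% with it. Neither difference was called.

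**Figure D4:**
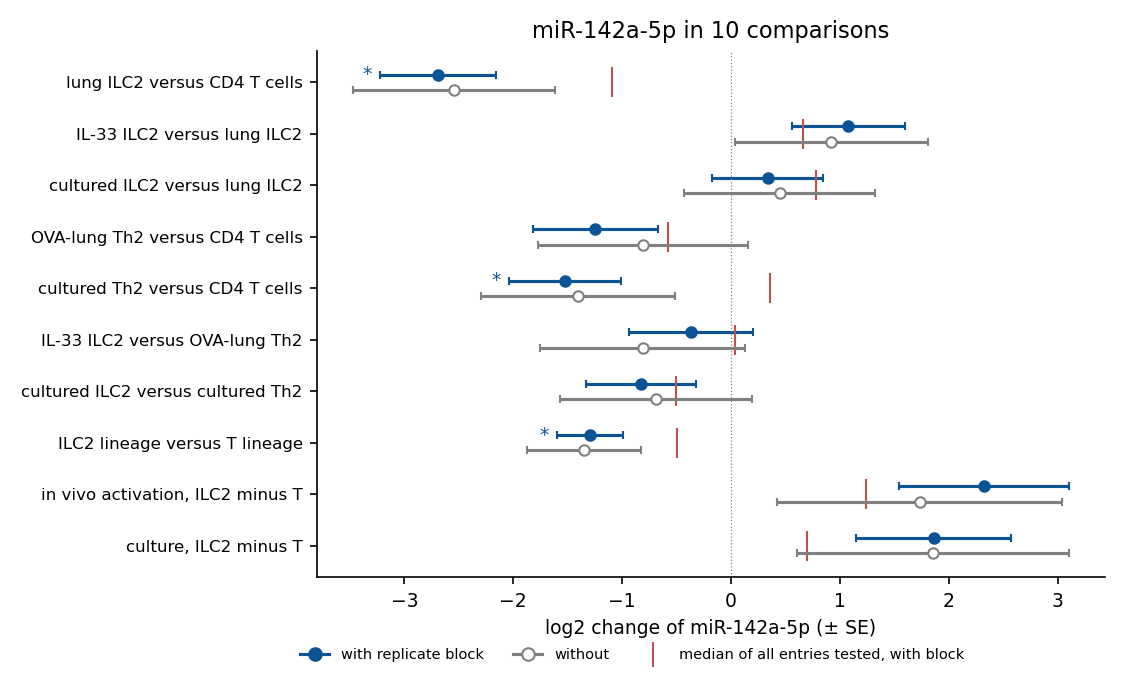
Log2 changes of miR-142a-5p with SE in 10 comparisons, with the replicate block (filled blue) and without it (open grey), and the median of all 384 entries with the block (red tick). Stars mark edgeR calls, which occur only with the block: lung ILC2 against CD4 T cells (−2.69), cultured Th2 against CD4 T cells (−1.52) and the ILC2 lineage against the T lineage (−1.29).

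For miR-142a-3p the same fits were wide, because zeros and high counts stand side by side in 3 groups. No comparison of 10 called it with or without the block. Lung ILC2 against CD4 T cells gave −2.43 ± 2.49 (edgeR adjusted p = 0.598), and IL-33 ILC2 against lung ILC2 gave −1.69 ± 2.42 (adjusted p = 1). IL-33 ILC2 and lung ILC2 hold no zero, yet the SE is set by the spread of all groups. By RPM the 3p arm was lower in IL-33 ILC2 than in lung ILC2 by 4.57, 2.82, 0.94 and 1.15 on the log2 scale in libraries numbered 1 to 4, although the ranges overlapped. Without the 4 libraries with zeros the edgeR change was −1.68 ± 1.06, and −1.26 ± 0.75 with the block (adjusted p = 0.846 and 0.808). Without them the 3p arm was called in 1 comparison, OVA-lung Th2 against CD4 T cells with the block (−3.09 ± 0.95, edgeR adjusted p = 0.043), where 11 of 400 entries were called (2.75%). That call rests on 2 CD4 T cell libraries, and the differences between libraries numbered 1 and between those numbered 2 were −4.62 and −0.96 on the log2 RPM scale.

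Other microRNAs of blood cells were read from a list of 11, of which 10 were tested (miR-223-5p had 6 counts in all). In lung ILC2 against CD4 T cells 0 of the 10 rose and 3 fell with the block, beside the 12.5% called overall. They were miR-150-5p, high in resting lymphocytes (−5.67 ± 0.64, edgeR adjusted p = 1.65e-08), its partner miR-150-3p (−6.07 ± 1.09) and miR-181a-5p, known from T cell development (−3.97 ± 0.67). The median of the 10 was −1.76 and that of all entries −1.09. In cultured Th2 against CD4 T cells 1 rose and 4 fell, beside 13% of all entries called. Between lineages, where 23.7% of all entries were called, 1 rose, miR-146a-5p, a brake on NF-kB signalling (2.17 ± 0.32), and 6 fell. miR-142a-5p, at −1.29, moved less in the lineage comparison than miR-150-5p (−3.70 ± 0.34) and miR-181a-5p (−2.27 ± 0.37). With the block, 1 rose and 0 fell in IL-33 ILC2 against lung ILC2 (0.521% of all entries called), 2 rose and 2 fell in cultured ILC2 against lung ILC2 (4.43%), and 1 rose and 0 fell in OVA-lung Th2 against CD4 T cells (5.73%). These counts in IL-33 ILC2 against OVA-lung Th2 were 0 and 2 (3.39%), for the cultured pair 1 and 4 (12.5%), and for the differences between lineages 0 and 0 in vivo (3.65%) and 2 and 0 in culture (0.781%). Without the block 0 rose and 3 fell in lung ILC2 against CD4 T cells (1.56%), 0 and 2 in cultured Th2 against CD4 T cells (1.04%), 1 and 0 in the cultured pair (0.26%) and 1 and 3 between lineages (9.11%). The other 6 comparisons had 0 of either, beside 0.26% of all entries in cultured ILC2 against lung ILC2 and 0% in the other 5.

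The entries whose pattern was most like each arm were found by Pearson's r of TMM-scaled log2 CPM after subtracting table means, among 124 other entries whose log2 CPM averaged 6 or more. The values describe these libraries, which share tables and scaling. For miR-142a-5p over 23 libraries they were miR-29a-3p (r = 0.82), miR-150-3p (0.79), miR-16-5p (0.76), miR-30e-5p (0.75) and miR-181a-5p (0.75). The same 5 led over the 19 libraries with 3p counts, at 0.70 to 0.78. For miR-142a-3p over 23 libraries they were miR-30c-5p (0.93) and miR-30b-5p (0.92), which share its zeros, then miR-26b-5p (0.59), miR-24-2-5p (0.47) and let-7e-5p (0.45). Over the 19 libraries they were miR-30e-5p (0.84), miR-101c (0.75), miR-20a-5p (0.69), let-7g-5p (0.68) and miR-128-3p (0.67). Among the 124, over 23 libraries 3p ranked 97 for 5p and 5p ranked 94 for 3p (r = −0.16). Over the 19 libraries with 3p counts 3p ranked 36 for 5p and 5p ranked 22 for 3p (r = 0.47).

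Among hairpins with both arms tested, 105 in all, 10 had a mean of at least 500 RPM for the minor arm. miR-142a had the most abundant minor arm of these 10. Its log2 arm ratio had an SD of 1.41 over the 19 libraries in which both arms had counts, and 8 of the 10 had a larger one (median 2.02, range 1.27 to 3.92). miR-142a was also the 1 hairpin of the 10 with an arm at 0 in 4 or more libraries. Where both arms had counts its ratio spread less than that of most of the 10.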

How the data were processed

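Small RNA was sequenced from 8000 to 3000000 cells per library, with 5 to 50 ng of RNA, per the labels' protocols. The authors deposited expected counts per microRNA in 4 tables of 871, 1141, 482 and 725 entries with 1 column per library, per the file headers. Of these, 9.98% of values above 0 are fractional and 0 of those of the miR-142a arms. The authors also deposited RPM for 1099 entries, which equal rounded counts divided by the column total within 0.001 reads. The submitters' processing notes name mm10 and DESeq2. The aligner, the trimming and the microRNA annotation were not given in the sources used here. 46 columns of values were used, and 6 group averages were not.

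Entries missing from a table were set to 0, and expected counts were rounded to the nearest whole number. edgeR 4.0.16 in R 4.3.3 fitted all 23 libraries (TMM, filterByExpr, quasi-likelihood F-test, 384 entries). The fits were tested on simulated data with known changes. Alternatives were DESeq2 1.42.0, limma 3.58.1 on log2(RPM + 1), other scalings, no filter, the replicate block and leaving out each library. Permutation tests used scipy 1.17.1, with 0.5 counts added to each arm.

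Labels tie each replicate number to 1 count table, taken as pairing. Deviations from group means were correlated over 204 entries (minimum 10 counts, in 12 libraries or more). The correlation was above 0.1 for 51 of 55 pairs sharing a number (median 0.38, lowest −0.03) and had a median of −0.15 for other pairs, and 22 of 23 libraries were closest to their own number.

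Members, lists and rules were chosen with earlier results of these data known. Named entries are the arms, entries named miR-142 or sharing a seed, the 5 most alike for each arm, and the blood cell list. The fits without the 4 libraries and the search for UCCUAC were added after the values were seen.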

Additional observations from a re-analysis of the deposited data

Results flagged for a closer look

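Of 15 sets of 4 libraries checked (RPM of each arm and their log2 ratio in 5 groups), 2 had a library far from the other 3. Chance flags about 1 in 20 such sets. With 0.5 counts added to each arm, the log2 ratio of 5p to 3p was 14.40 in cultured ILC2 library 1, against 0.32 to 1.16 in the other 3 cultured ILC2 libraries. It was 16.68 in cultured Th2 library 2, against 1.71 to 2.51 in the other 3. Both are libraries in which the 3p arm is listed at 0, and their exact size depends on the counts added. In CD4 T cells the 2 libraries with zeros lie near each other, so neither was far from the rest. The cause of the zeros was not tested.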

How the results depend on the processing

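Values are log2 changes with no call unless stated. With the replicate block miR-142a-5p became a call in lung ILC2 against CD4 T cells (−2.69), cultured Th2 against CD4 T cells (−1.52) and between lineages (−1.29), and the block changed no other call of either arm; it turned 3p in cultured against lung ILC2 to 0.30 and the correlation of the arms to −0.13. DESeq2's test also called 5p in lung ILC2 against CD4 T cells (−1.87) and between lineages (−1.39), and DESeq2 size factors in edgeR called the second (−1.39).

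For cultured against lung ILC2, 5p turned to −0.36 with DESeq2 size factors or test, −0.60 with library totals, −0.88 with limma and −0.043 without the 4 libraries in which 3p is at 0, and with the block to −0.48, −0.84, −0.070 (no filter) and −0.14; 3p turned to 0.074 with no filter and 0.37 without the 4 libraries, and with the block to −0.37 and −0.64 under the other scalings. For 3p the in vivo difference between lineages turned to −0.65 with DESeq2 size factors or test and −0.45 with library totals (with the block −0.65 and −0.085). limma turned 3p to 5.01, 4.79 and 0.33 against CD4 T cells in lung ILC2, OVA-lung Th2 and cultured Th2, 1.30 between lineages, −7.16 and −3.99 for the in vivo and culture differences, and 5p to −0.00853 in IL-33 against lung ILC2. With the block and no filter, 5p in IL-33 ILC2 against OVA-lung Th2 turned to 0.0087.

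The blocked 5p call in cultured Th2 was lost with DESeq2 size factors (−1.24) and no filter (−1.23). Without the 4 libraries the blocked 5p calls were lost (−1.76, −0.62 and −1.04), 3p was called in OVA-lung Th2 against CD4 T cells (−3.09), and the arm ratio differences turned to 0.54, 1.83 and 1.47 against CD4 T cells (lung ILC2, OVA-lung Th2, cultured Th2) and −0.44 for cultured against lung ILC2 (2.31 and −1.04 for OVA-lung Th2 and cultured ILC2 when paired). The groups' share of ratio variance passed (59.0%, paired 70.8%), as did the correlation of the arms (0.79; TMM 0.72; without 2 libraries 0.67).

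Leaving out 1 library gave these ranges where a direction or call changed. Without the block: 5p, cultured against lung ILC2 −0.43 to 0.93, lineages −1.68 to −0.88 (called without cultured ILC2 2, lung ILC2 2 or CD4 4); 3p, cultured against lung ILC2 −0.85 to 0.67, cultured pair −0.47 to 1.57, in vivo difference −0.23 to 2.12. With the block: 5p, cultured against lung ILC2 −0.39 to 0.50, OVA-lung Th2 against CD4 T cells −2.02 to −0.63 (called in 8 of 23), cultured Th2 against CD4 T cells −1.94 to −1.11, IL-33 ILC2 against OVA-lung Th2 −0.91 to 0.43, in vivo difference 1.14 to 2.88 (called in 9 of 23); 3p, cultured against lung ILC2 −0.38 to 1.08, cultured Th2 against CD4 T cells −2.98 to 0.44, cultured pair −0.20 to 1.31, in vivo difference −0.36 to 2.22, culture difference −0.19 to 3.42. Arm ratio: cultured against lung ILC2 −0.44 to 4.26, cultured Th2 against CD4 T cells −6.15 to 0.11, cultured pair −5.04 to 2.07. The blocked calls of 5p in lung ILC2 against CD4 T cells (−2.90 to −1.98) and between lineages held in all 23. The causes of these changes were not tested. Entries called of all tested, with and without the block in edgeR and then by DESeq2 and limma without it, were 48, 6, 31 and 9 in lung ILC2 against CD4 T cells, 2, 0, 3 and 0 in IL-33 against lung ILC2, 17, 1, 5 and 3 in cultured against lung ILC2, 22, 0, 28 and 10 in OVA-lung Th2 against CD4 T cells, 50, 4, 32 and 6 in cultured Th2 against CD4 T cells, 13, 0, 19 and 1 in the stimulated lung pair, 48, 1, 25 and 12 in the cultured pair, 91, 35, 64 and 22 between lineages, 14, 0, 11 and 1 for the in vivo difference and 3, 0, 6 and 0 for the culture difference. Other scalings or no filter, without the block, gave 0 to 12 calls in each comparison but that of the lineages (25 to 49).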

Other observations

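miR-425-5p, an entry with no link to miR-142a in name or seed, was at 0 in 4 libraries, 1 in each count table. These were lung ILC2 libraries 2, 3 and 4 and CD4 T cells library 1. In the other 19 libraries it ran from 11.5 to 12287 RPM. In the 4 libraries with miR-425-5p at 0 both miR-142a arms had counts. How many entries have 1 zero in each count table is not given here, and the cause was not tested.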
